A study of Mus musculus with 10 samples.

Results

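The core histone genes examined here are the 61 protein-coding genes of the replication-dependent histone clusters that encode histones H2A, H2B, H3 and H4. They were chosen by gene symbol (Hist1h2, Hist1h3, Hist1h4, Hist2h, Hist3h and Hist4h; linker histones were left out) from 55536 genes in the deposited tables. By type there were 18 H2A, 18 H2B, 12 H3 and 13 H4 genes. The Hist1 cluster on chromosome 13 held 48 of them, the Hist2 cluster on chromosome 3 held 10, the Hist3 cluster on chromosome 11 held 2, and Hist4h4 on chromosome 6 stood alone.

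RNA was measured by sequencing in female germ cells (oocytes) that were sorted for green fluorescence from dissociated mouse ovaries at E16.5, late in fetal life, with 5 Taf4b-heterozygous and 5 Taf4b-deficient libraries. All animals came from matings of C57BL/6 mice with 2 copies of an Oct4-EGFP transgene, which marks germ cells, and 1 mutant copy of Taf4b, so the controls carried 1 mutant allele too. Libraries came from 3 litter dates, and the labels do not say whether the libraries of a genotype were separate embryos, so a p-value here reflects only how these libraries vary, which may be technical in part. TAF4b is a subunit of TFIID, the factor that recognises core promoters, and the comparison asks how oocyte transcripts differ when it is lost.

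Core histones form the octamer around which DNA is wrapped, with a pair of each of H2A, H2B, H3 and H4. Most clustered core histone genes have no introns, are transcribed chiefly during DNA replication and give mRNAs that end in a conserved stem-loop, bound by the protein SLBP, in place of a poly(A) tail. A minority are also made as polyadenylated mRNAs in cells that no longer divide. Oocytes at this age have finished their last DNA replication and are in meiotic prophase. The clustered genes Hist1h2aa and Hist1h2ba encode the germ line variants TH2A and TH2B.

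The stem-loop is shown because it is the shared end of these mRNAs. It was searched, on the transcript strand, as GGC, any base, CTTTT, any base, AG, any base and GCC. It was found in the annotated transcripts of 38 of the 61 members (11 of 18 H2A, 10 of 18 H2B, 8 of 12 H3 and 9 of 13 H4 genes) and in 45 of 21901 protein-coding genes, or 0.205%. The other 7 genes were H2afx, H2bfm, Trim17 and the linker histone genes Hist1h1c, Hist1h1d, Hist1h1e and Hist1h1t. Trim17 shares exon bases with the member Hist3h2a, which carries the motif, so its match may not be a separate one. The 5 examples below are read from the GENCODE transcripts (GRCm38, DNA letters, 5′ to 3′), with the stem-loop in capitals and 5 flanking bases on each side.
Hist1h2ae (H2A, chr13:23570668-23570683, minus strand): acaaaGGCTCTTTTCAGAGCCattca
Hist1h2bk (H2B, chr13:22036300-22036315, plus strand): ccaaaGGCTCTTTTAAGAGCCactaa
Hist1h3a (H3, chr13:23761890-23761905, minus strand): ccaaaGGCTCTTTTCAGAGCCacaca
Hist1h4d (H4, chr13:23581950-23581965, plus strand): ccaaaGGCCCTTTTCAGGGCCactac
Hist1h4i (H4, chr13:22040966-22040981, minus strand): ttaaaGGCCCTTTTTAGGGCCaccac

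The 9 H4 genes with the motif carried the stem with GGCCC on the left, 7 with C and 2 with T as the last loop base. The H2A, H2B and H3 genes with the motif carried GGCTC there. Matches describe the annotated letters only. A member without a match can have an annotated transcript that stops before the stem-loop, as for Hist1h4k, whose 312 annotated bases hold none.

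Totals ran from 16707216 to 26983565 counts per library, and the core histone genes together took 0.0182% to 0.0927% of them. Taf4b stood at 271, 290, 142, 65.7 and 101 CPM (read counts scaled to a common library size, with TMM correction) in heterozygous libraries 1 to 5 and at 58.2 to 81.7 CPM in the deficient libraries, so the library labelled heterozygous 4 lay within the deficient range. Which stretch of Taf4b the mutation removes is not given in the sources used here. Germ cell markers were high in every library (Dazl from 1224 to 2734 CPM, Ddx4 from 388 to 875 CPM), and Pou5f1, the source of the Oct4 promoter, was at or below 1.16 CPM. Summed over 11 erythroid genes, 4 of them under 1 CPM in every library and Hbb-bh1 among them at 0, the level was 2085 CPM in heterozygous 5, 1606 CPM in deficient 5, 720 CPM where the label is heterozygous 4, and 65.8 to 223 CPM in the other libraries.

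The deposited TPM (a length-scaled relative level) did not serve for comparing levels between these genes. Over 20977 genes with counts in every library, TPM equalled the count times a factor of the library over a divisor of the gene, with a largest relative deviation of 1.49e-14. That divisor ranked with exon length at a Spearman rho of 0.279 when lengths were sorted as numbers and of 1 when they were sorted as text. For the 42 detected members shorter than 1000 bases, the level scaled by the annotated length was 20.6 to 25.96 times the deposited TPM, and for the 14 longer ones it was 0.185 to 2.34 times. Levels between single genes are therefore given here as CPM per kb of annotated exon. Sums by histone type are of CPM and are not scaled by length. Within a gene, TPM and counts carry the same ranking apart from the library factor.

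**Figure D1:**
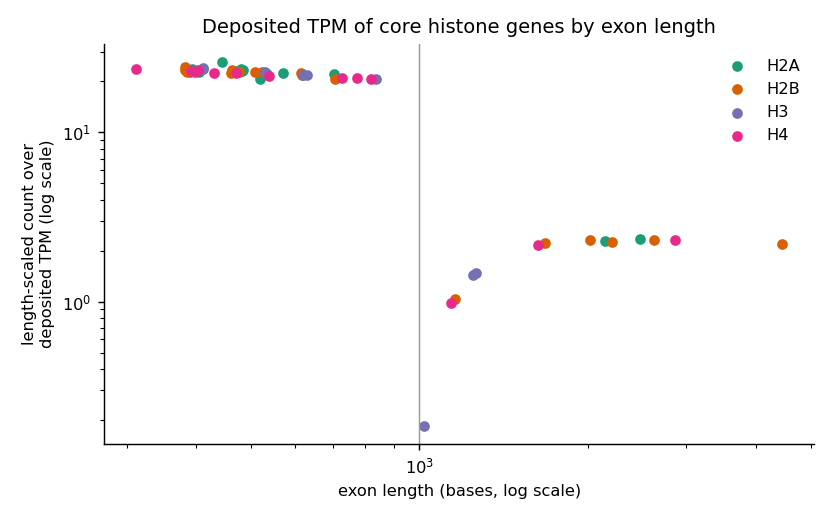
Each point is 1 of the 56 core histone genes with any count. The horizontal axis is exon length in bases and the vertical axis the length-scaled count over the deposited TPM, both on log scales. Points left of the line at 1000 bases lie between 20.6 and 25.96, and points right of it between 0.185 and 2.34.

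Of the 61 members, 56 had at least 1 count. The 5 at 0 in every library were Hist2h2aa1, Hist2h2aa2, Hist2h2bb, Hist2h3b and Hist2h3c1, and every 100-base window of their transcripts also occurs in the transcript of another annotated gene. A count of 0 allows up to 3 counts, or 0.130 to 0.184 CPM by library, with counting error only and with shared reads not considered. How reads that match several genes were counted is not given in the sources used here, and 58 of 61 members share at least 1 such window, so single members of this family are uncertain. Hist1h4d shares none. All 18 H2A genes overlap an annotated gene on the other strand, as do 1 H2B, 1 H3 and 1 H4 gene. The genes overlapping most H2A members are miRNA entries, and those overlapping Hist2h2bb, Hist2h3b and Hist1h4b include antisense genes. The strand setting of the counting is not given either.

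By summed CPM, which is not scaled by gene length, H4 was the highest type in every library. Hist1h4d, an H4 gene at chr13:23581598-23582735, was the most abundant member. Summed over the 13 H4 genes, the level was 392, 295, 95.5, 271 and 264 CPM in heterozygous libraries 1 to 5 and 361, 388, 324, 509 and 586 CPM in deficient libraries 1 to 5. Hist1h4d alone was at 369, 239, 47.0, 199 and 190 CPM in the heterozygous and 283, 333, 248, 438 and 343 CPM in the deficient libraries. It made up 49.2% to 94.1% of H4 counts and 22.1% to 71.6% of all core histone counts in a library. Its annotated exon of 1138 bases runs 770 bases past the stem-loop, and its mean level of 236 CPM per kb was well above the next members, Hist1h2ae at 42.4, Hist1h2ba at 35.3, Hist1h4i at 34.1 and Hist1h2ap at 29.4 CPM per kb. The order of those 4 was not tested.

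The H2A sum was the second highest by type in every library but deficient 5, where H2B was higher. It was 83.9, 49.9, 79.7, 71.1 and 55.7 CPM in the heterozygous and 73.1, 69.0, 70.4, 93.3 and 100.1 CPM in the deficient libraries. Hist1h2ae, an H2A gene, gave 25.1% to 51.7% of it.

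The H2B sum was 21.2, 36.8, 33.6, 49.7 and 49.6 CPM in the heterozygous libraries and 42.3, 42.7, 49.2, 49.3 and 124.8 CPM in the deficient ones. Deficient 5 stood apart from the other 9 libraries.

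The H3 sum was the smallest, at 18.0, 10.4, 3.42, 13.8 and 15.3 CPM in the heterozygous and 14.9, 15.6, 19.7, 21.5 and 28.3 CPM in the deficient libraries. Heterozygous 3 was the lowest library for H3 and for H4. By cluster, Hist1 genes gave 96.2% to 99.2% of the core histone counts of a library, and the 10 Hist2 genes together 0.677 to 2.89 CPM.

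**Figure D2:**
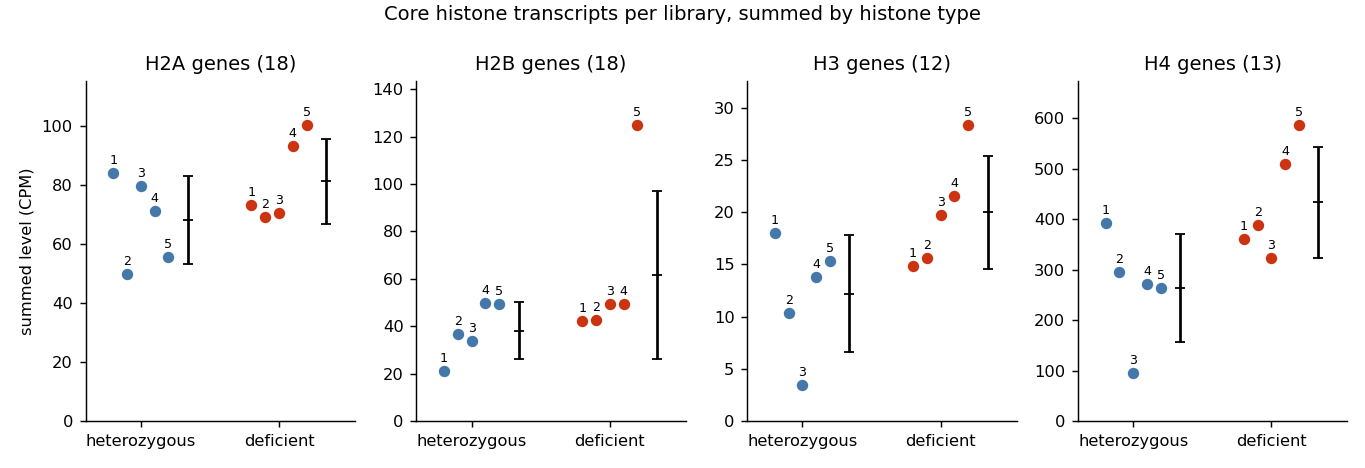
Each point is a library, numbered by replicate, and the vertical axis is the CPM summed over the genes of a histone type. Bars are the mean and SD of 5 libraries. The genotypes overlap in all 4 types, deficient 5 is the highest library in each, and heterozygous 3 is the lowest for H3 and H4.

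Every type had a higher mean sum in the deficient libraries, and in every type the genotypes overlapped. In sorted pools of cells, fewer cells with a transcript and less transcript per cell cannot be told apart. The mean H4 sum was 264 ± 107 CPM in heterozygous and 434 ± 110 CPM in the deficient libraries (SD, n = 5 each), a log2 ratio of means of 0.72. For H3 the means were 12.2 ± 5.63 and 19.995 ± 5.42 CPM (log2 ratio 0.71), for H2B 38.2 ± 11.96 and 61.7 ± 35.4 CPM (0.69), and for H2A 68.1 ± 14.8 and 81.2 ± 14.5 CPM (0.25). Without deficient 5 these log2 ratios were 0.59 for H4, 0.56 for H3, 0.27 for H2B and 0.17 for H2A. Without Hist1h4d the H4 log2 ratio was 0.94, and 0.36 when deficient 5 was left out as well.

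Within the litter dates, the log2 ratio of the H4 sums was 0.07 on the first, 0.96 on the second and 1.06 on the third. The first date had 2 heterozygous and 1 deficient library, the second 2 and 2, and the third 1 and 2. These H4 sums mostly follow Hist1h4d. Without it the H4 ratios were 0.97, 0.12 and 1.10. Over the 12 tested H4 genes, the median log2 difference was 0.43, 0.49 and 0.81 on the same dates. For H3 the log2 ratio of sums was 0.07, 1.03 and 0.70, for H2B 0.55, 0.14 and 0.81, and for H2A 0.13, -0.11 and 0.80. The H2A sum thus changed sign on the second date.

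Gene by gene, no member passed the test for a genotype difference. Of the 61 members, 45 had enough counts to be tested, and edgeR's quasi-likelihood test on all 19244 genes called 0 members and 0 genes of any kind (0% of all genes) at a Benjamini-Hochberg adjusted p under 0.05. Taf4b itself was not called, at a log2 fold change (deficient over heterozygous) of -1.22 ± 0.35 (SE; edgeR adjusted p = 0.155). At an unadjusted p under 0.05, 9 of the 45 members were higher in deficient libraries, against 7.45% of all genes, and 0 were lower, against 9.13% of all genes. DESeq2 called 2 of the 49 members it gave an adjusted p, Hist1h4k and Hist1h3h, against 1.19% of all genes called higher. The log2 fold change (deficient over heterozygous) was above 0 in 42 of 45 members, against 48.9% of all genes, with a median of 0.77 against -0.02 over all genes. Core histone genes share libraries and reads, so these counts are not of independent genes.

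The size of this difference moved with deficient 5. Without deficient 5, 35 of 46 tested members were above 0, against 48.1% of all genes in the same fit, and the median was 0.29. At an unadjusted p under 0.05, 5 of those 46 were higher, against 8.01% of all genes, and 1 was lower. Deficient 5 was among the 3 libraries with high erythroid transcripts, and its germ cell and macrophage marker sums stood at the low end. Its germ cell marker sum was the lowest of the 10 libraries (3126 CPM, others 3805 to 5639 CPM), as was its macrophage sum (94.1 CPM, others 156 to 270 CPM). Its remaining marker sums lay within the range of the other libraries. The stroma sum was 84.6 CPM (others 15.5 to 101.8 CPM) and the pregranulosa sum 81.2 CPM (28.3 to 85.95 CPM). The endothelial sum was 31.7 CPM (12.95 to 86.6 CPM) and the surface epithelium sum 41.9 CPM (9.63 to 58.6 CPM). The part of these cell types in the core histone levels was not tested. Heterozygous 5 had the highest erythroid sum, at 2085 CPM, and a core histone sum of 384 CPM, below 840 CPM in deficient 5. With all 3 erythroid-high libraries left out, 39 of 46 members were above 0, against 51.5% of all genes, with a median of 0.66. There, 10 of 46 were higher at an unadjusted p under 0.05, against 6.01% of all genes. With the litter date in the model, 40 of 45 were above 0, against 50.5% of all genes, with a median of 0.53. In that model 7 of 45 were higher at an unadjusted p under 0.05, against 11.3% of all genes. Without the third litter date, 2 of 46 were higher at that threshold, against 4.64% of all genes. Without heterozygous 3 and deficient 5, a choice made after seeing the data, 3 of 45 were, against 7.91%.

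**Figure D3:**
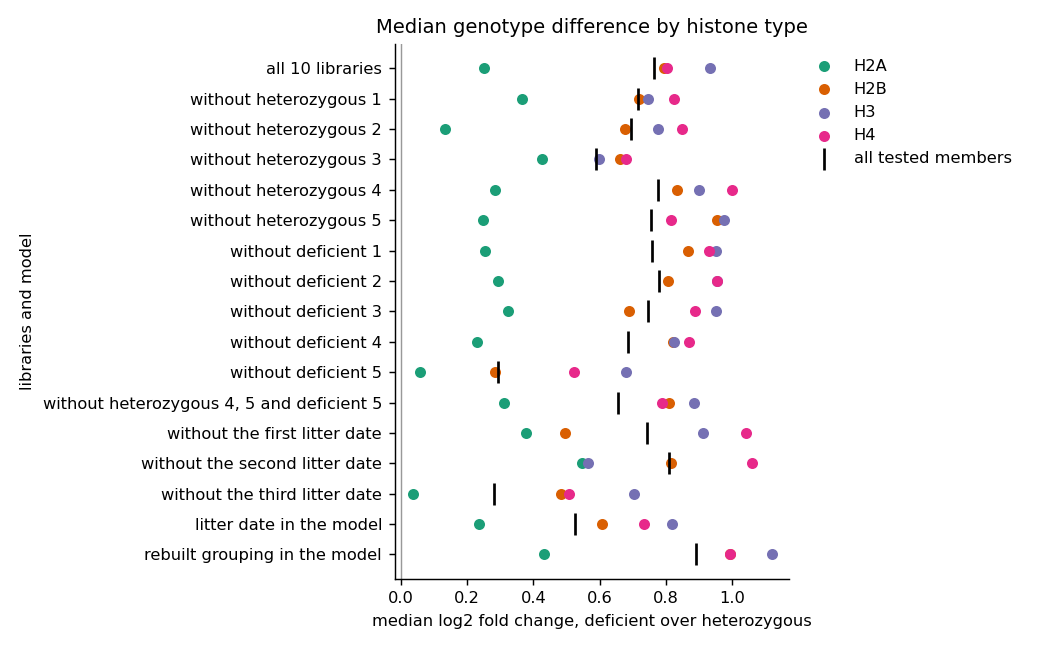
The horizontal axis is the median log2 fold change over the tested core histone genes, by type (points) and over all (black bars), and each row is a set of libraries or a model. All medians lie above 0, the H2A medians are the lowest of the 4 types in every row, and the lowest medians over all members among the rows drawn are 0.28, without the third litter date, and 0.29, without deficient 5; the limma fits and the pair of heterozygous 3 and deficient 5 left out together are not drawn.

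The 12 tested H4 genes all had log2 fold changes above 0, from 0.29 to 1.504, with a median of 0.80. Hist2h4, with 53 counts in all, was not tested. Hist1h4k, at chr13:21750194-21750505, had the smallest p of all members. It was at 2.16, 2.05, 0.692, 2.08 and 1.56 CPM in the heterozygous and at 4.18, 4.66, 4.10, 3.93 and 7.34 CPM in the deficient libraries. Every deficient library was above every heterozygous one. Its log2 fold change was 1.504 ± 0.342 (SE; edgeR adjusted p = 0.116).

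Hist1h4i, another H4 gene, was at 3.07, 13.8, 7.57, 20.6 and 20.3 CPM in the heterozygous and 25.97, 10.6, 20.7, 21.0 and 104 CPM in the deficient libraries. Deficient 5 was 4.01 times the next highest library, deficient 1. Deficient 3 and 4 lay just above the highest heterozygous library, and deficient 2 lay within the heterozygous range. Its log2 fold change was 1.48 ± 0.61 (edgeR adjusted p = 0.253), and 0.57 without deficient 5. Hist1h4n was at 5.75, 8.65, 2.46, 10.2 and 12.1 CPM in heterozygous and 10.0, 15.4, 12.1, 10.4 and 31.1 CPM in the deficient libraries. The groups overlapped, with a log2 fold change of 1.013 ± 0.42 (edgeR adjusted p = 0.256), and 0.60 without deficient 5.

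The other abundant H4 genes had smaller fold changes. Hist1h4d had a log2 fold change of 0.65 ± 0.39 (edgeR adjusted p = 0.408), or 0.40 without heterozygous 3, and only deficient 4 lay above its highest heterozygous library. Hist1h4c was at 5.22, 18.6, 26.9, 21.0 and 21.4 CPM in heterozygous and 21.9, 11.8, 23.3, 22.8 and 54.9 CPM in the deficient libraries. Its log2 fold change was 0.53 ± 0.43 (edgeR adjusted p = 0.549) and was 0.09 without deficient 5.

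Of the H3 genes, the 8 tested had log2 fold changes from 0.45 to 1.68 with a median of 0.93. Hist1h3b (33 counts in all) and Hist2h3c2 (121 counts) were not tested, nor were the 2 at 0. Hist1h3h was at 0.431, 0.418, 0.0432, 0.189 and 0.412 CPM in heterozygous and 0.650, 0.920, 0.838, 1.44 and 0.967 CPM in the deficient libraries. The genotypes did not overlap, at levels under 2 CPM. Its log2 fold change was 1.68 ± 0.50 (edgeR adjusted p = 0.161), and 92.0% of its windows also occur in other genes.

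Hist1h3i, the H3 gene with the highest level per kb (10.2 CPM per kb), showed another order of libraries. It was at 7.23, 2.14, 0.346, 1.56 and 1.74 CPM in heterozygous and 5.25, 5.40, 6.66, 7.18 and 4.57 CPM in the deficient libraries. Heterozygous 1 was its highest library and the 4 other heterozygous libraries lay below all deficient ones. The log2 fold change was 1.16 ± 0.55 (edgeR adjusted p = 0.313). It was called without heterozygous 1, where edgeR's adjusted p was 0.0394 and 1.42% of all genes were called higher.

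Hist1h3f was at 0.192, 1.02, 0.303, 1.09 and 1.19 CPM in heterozygous libraries and 1.12, 1.29, 1.58, 1.22 and 2.33 CPM in deficient ones. All deficient libraries but deficient 1 were above its highest heterozygous library, with a log2 fold change of 0.99 ± 0.48 (edgeR adjusted p = 0.323). Hist1h3a was at 4.07, 3.25, 1.86, 5.77 and 4.90 CPM in heterozygous libraries and 3.39, 3.13, 5.31, 4.38 and 11.3 CPM in deficient ones. Outside deficient 5 its groups covered the same range, and its log2 fold change of 0.47 ± 0.40 was 0.02 without that library. Hist1h3c had 0.52 ± 0.55 on the log2 scale, 0.22 without heterozygous 3 and 0.33 without deficient 5. Hist2h3c2, outside the test, was at 0.130 to 2.02 CPM in heterozygous libraries and 0.0903 to 0.967 CPM in deficient ones, with heterozygous 5 and deficient 5 the highest of their groups.

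Of the H2B genes, 11 of 12 tested were above 0, with a median of 0.80 and a range from -0.16 to 1.25. Hist1h2bf, Hist1h2bh, Hist1h2bn, Hist1h2br and Hist2h2be had 48 to 130 counts in all and were not tested, nor was Hist2h2bb. Hist1h2bk was at 2.49, 4.00, 1.77, 3.41 and 4.26 CPM in heterozygous and 4.41, 4.78, 5.54, 5.19 and 9.01 CPM in the deficient libraries. All deficient libraries lay above the heterozygous ones, the closest pair being 4.41 and 4.26 CPM. Its log2 fold change was 0.86 ± 0.31 (edgeR adjusted p = 0.208).

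Hist1h2bb was at 0.479, 0.930, 0.476, 0.852 and 0.916 CPM in heterozygous and 1.35, 1.17, 1.12, 1.72 and 3.34 CPM in the deficient libraries. Here too the groups did not overlap, with a log2 fold change of 1.25 ± 0.41 (edgeR adjusted p = 0.181). With Hist1h4k and Hist1h3h, 4 of the 45 tested members had all deficient above all heterozygous libraries, against 1.94% of all genes. Hist1h2bc, which is also made as a polyadenylated mRNA, had the lowest H2B fold change, -0.16 ± 0.35 on the log2 scale, with heterozygous 5 as its highest library at 6.50 CPM.

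Hist1h2bj, the second H2B gene by level per kb, was at 5.03, 8.79, 14.3, 8.28 and 6.92 CPM in heterozygous libraries and 8.78, 7.12, 13.1, 13.5 and 21.4 CPM in deficient ones. Heterozygous 3, low for most members, was its highest heterozygous library, and its log2 fold change was 0.56 ± 0.34 (edgeR adjusted p = 0.413), and 0.29 without deficient 5. Hist1h2be was at 0.815, 1.86, 0.476, 3.78 and 3.07 CPM in heterozygous libraries and 2.46, 3.44, 2.28, 1.85 and 11.1 CPM in deficient ones. Only deficient 5 was above its highest heterozygous library, and the log2 fold change of 1.08 ± 0.61 was 0.30 without it. Hist1h2bp likewise had 0.80 ± 0.47, and 0.28 without deficient 5. The annotated span of Hist1h2be overlaps the linker histone gene Hist1h1e. Hist1h2br, noticed after its values were seen, was at 0.623, 0.0465, 0.778, 1.61 and 2.11 CPM in heterozygous and 0.418, 0.0613, 0, 0.181 and 0.176 CPM in the deficient libraries. Its deficient mean was the lower one, against most members, and the groups overlapped. In the authors' deposited comparison its log2 fold change was -2.31, with no adjusted p given (DESeq2 unadjusted p = 0.0042).

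The 13 tested H2A genes had log2 fold changes from -0.19 to 1.13 with a median of 0.25, and 11 were above 0. Hist1h2af, Hist2h2ab and Hist2h2ac had 1 to 35 counts in all and were not tested, nor were the 2 at 0. Hist1h2ae was at 43.4, 17.9, 39.8, 17.9 and 17.2 CPM in heterozygous and 32.8, 32.9, 26.1, 37.4 and 32.9 CPM in the deficient libraries. The deficient libraries fell between the heterozygous pair 1 and 3 and the other 3, with a log2 fold change of 0.25 ± 0.29 (edgeR adjusted p = 0.683). Leaving out 1 library moved it to between 0.13 and 0.48, the latter without heterozygous 1.

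Hist1h2ap was at 16.3, 7.90, 12.7, 21.8 and 11.4 CPM in heterozygous libraries and 16.03, 8.10, 17.6, 17.1 and 12.8 CPM in deficient ones. The groups covered the same range, with a log2 fold change of 0.03 ± 0.29. Hist1h2ao, at -0.19 ± 0.34, and Hist1h2an, at -0.01 ± 0.42, were the only tested H2A genes below 0. Hist1h2ai was at 1.20, 2.88, 1.56, 0.804 and 0.824 CPM in heterozygous and 2.32, 4.11, 1.77, 3.88 and 3.83 CPM in the deficient libraries. Only deficient 1 and 3 lay below its highest heterozygous library, and its log2 fold change was 1.13 ± 0.41 (edgeR adjusted p = 0.207). Hist1h2ak also had an unadjusted p under 0.05, with 0.91 ± 0.33 (edgeR adjusted p = 0.214).

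**Figure D4:**
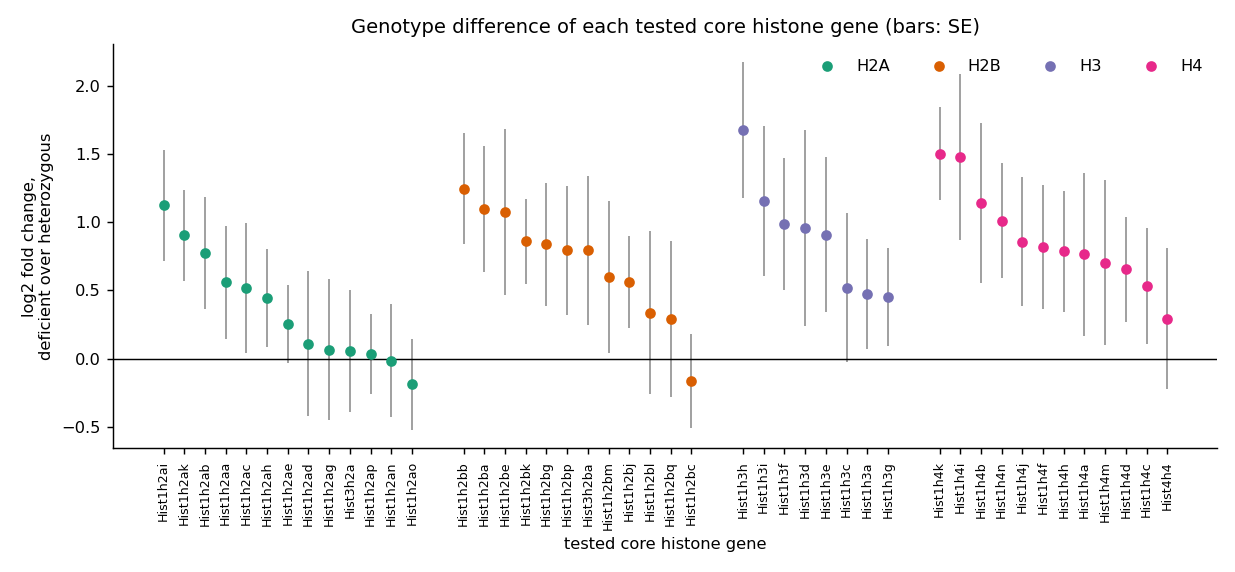
The vertical axis is the log2 fold change, deficient over heterozygous, of each of the 45 tested core histone genes, grouped and coloured by type, with bars of 1 SE. All H3 and H4 genes lie above 0, and Hist1h2ao, Hist1h2an and Hist1h2bc lie below it.

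Many members shared their highest and lowest libraries, the H2A genes less often than the other types. Deficient 5 was the highest of the 10 libraries in 30 of 45 tested members (66.7%) and in 6.97% of all genes. It was the highest in 10 of 12 H2B and 10 of 12 H4 genes, 5 of 8 H3 genes and 5 of 13 H2A genes. Its level was over 1.5 times that of the next library in 23 of 45 members, against 0.748% of all genes. These included Hist1h2ba (42.1 CPM against at most 14.05), Hist1h2be (11.1 against 3.78), Hist1h4m (13.3 against 5.06) and Hist1h2bm (12.9 against 5.84).

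At the other end, heterozygous 3 was the lowest library in 23 of 45 members (51.1%), against 20.6% of all genes. It was the lowest in 7 of 8 H3, 7 of 12 H4, 6 of 12 H2B and 3 of 13 H2A genes. In the H2A genes Hist1h2ao and Hist1h2ag, heterozygous 3 was instead the highest library. Heterozygous 1 was the lowest in 13 members (28.9%), against 8.83% of all genes, among them Hist1h4i, Hist1h4c, Hist1h4m and Hist1h2bm. In 3 members, Hist1h2ae, Hist1h2ad and Hist1h3i, heterozygous 1 was the highest library. Hist1h4d, in which it was the second highest library, and Hist1h3e, also second, were close to them.

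**Figure D5:**
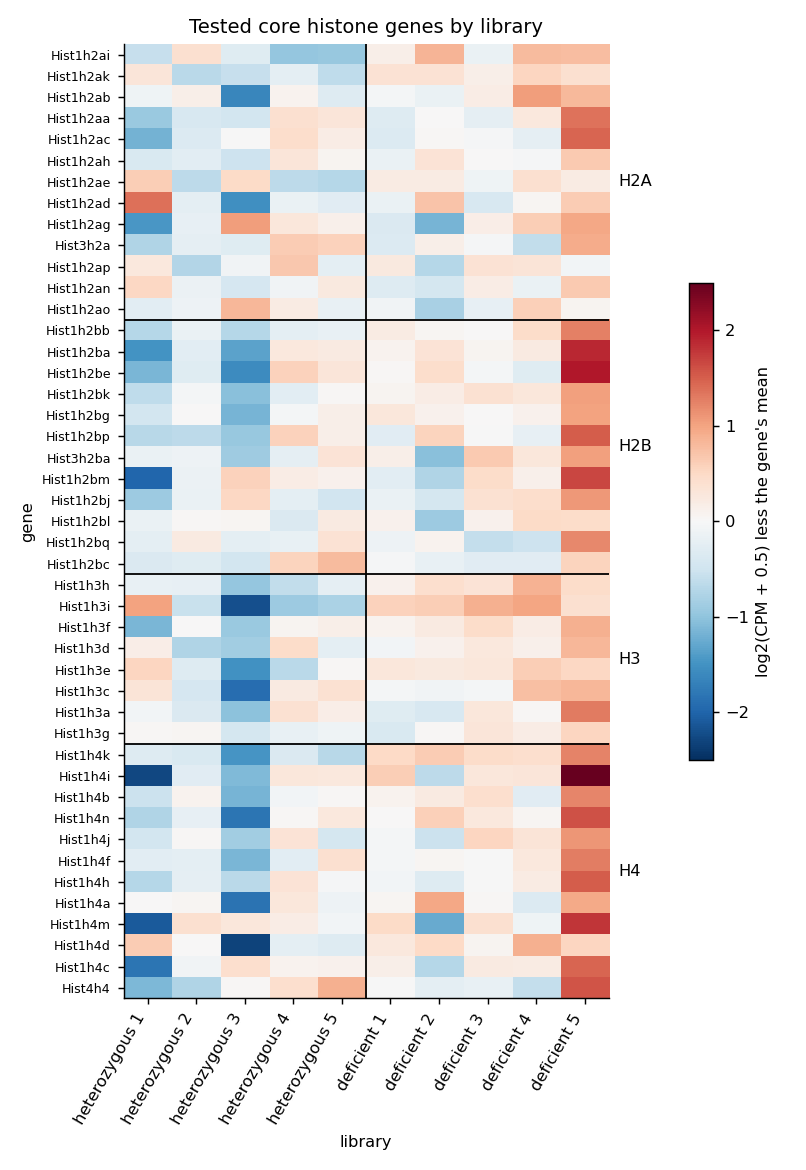
Rows are the 45 tested core histone genes by type and columns the 10 libraries. Colour is log2(CPM + 0.5) less the gene's mean over libraries, red above and blue below. The deficient 5 column is red in most rows, and heterozygous 3 is blue in most H3 and H4 rows.

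The germ line pair TH2A and TH2B was detected in every library. Hist1h2ba (TH2B) was at 3.59, 9.11, 4.06, 13.4 and 13.0 CPM in heterozygous and 11.9, 14.1, 11.6, 12.9 and 42.1 CPM in the deficient libraries. Apart from deficient 5, the deficient libraries lay near heterozygous 5 and the library labelled heterozygous 4. Its log2 fold change was 1.10 ± 0.46 (edgeR adjusted p = 0.261), and 0.53 without deficient 5. Hist1h2aa (TH2A) was at 1.68, 2.65, 2.51, 4.97 and 4.63 CPM in heterozygous and 2.83, 3.68, 3.07, 4.51 and 10.1 CPM in the deficient libraries, with a log2 fold change of 0.56 ± 0.41 (edgeR adjusted p = 0.510), and 0.09 without deficient 5. Both had the same high library, deficient 5, and the same lowest library, heterozygous 1.

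The 2 genes lie head to head on chromosome 13, and their upstream regions overlap. They are printed with those of Hist1h4k, the member with the smallest p, and Hist1h4d, the most abundant, as RefSeq's 150 bases before the gene start (GRCm38.p6, 5′ to 3′ on the gene's strand). Capitals mark CCAAT or its reverse complement ATTGG, and TATAAA or its reverse complement TTTATA.
Hist1h2aa (chr13:23934287-23934436, plus strand): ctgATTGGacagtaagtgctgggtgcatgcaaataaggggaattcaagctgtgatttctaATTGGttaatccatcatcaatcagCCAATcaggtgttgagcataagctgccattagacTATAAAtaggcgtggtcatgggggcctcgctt
Hist1h2ba (chr13:23934157-23934306, minus strand): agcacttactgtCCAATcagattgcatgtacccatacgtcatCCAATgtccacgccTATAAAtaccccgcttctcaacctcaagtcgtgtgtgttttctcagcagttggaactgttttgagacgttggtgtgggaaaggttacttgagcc
Hist1h4k (chr13:21750554-21750703, minus strand): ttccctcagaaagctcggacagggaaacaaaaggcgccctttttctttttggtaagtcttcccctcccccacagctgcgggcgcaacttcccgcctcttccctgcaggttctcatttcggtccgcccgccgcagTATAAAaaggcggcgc
Hist1h4d (chr13:23581418-23581567, plus strand): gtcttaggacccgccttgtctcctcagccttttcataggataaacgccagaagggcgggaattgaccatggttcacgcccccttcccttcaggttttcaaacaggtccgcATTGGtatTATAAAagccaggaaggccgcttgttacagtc

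Over the 250 bases before the start, CCAAT on either strand was present in 45 of the 56 members with a RefSeq promoter (80.4%), against 34.5% of 27025 genes. It was present in all 18 H2A and all 16 H2B genes, 8 of 10 H3 genes and 3 of 12 H4 genes. Many H2A and H2B genes lie head to head with overlapping windows, such as Hist1h2ad with Hist1h2bf and Hist1h2ag with Hist1h2bj. The same match can then count for both genes, so these are not all separate promoters. TATAAA on either strand was present in 25 of 56 members (44.6%), against 13% of all genes, and in 6 of 12 H4 genes. The motifs do not overlap in sequence, and a match describes letters in this window, not a bound site.

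In the authors' deposited table, 10 of the 41 members with an adjusted p were called higher in deficient oocytes at an adjusted p under 0.05, against 3.2% of all genes with one, and 0 were called lower. They were 5 H2B genes (Hist1h2ba, Hist1h2bb, Hist1h2be, Hist1h2bk and Hist1h2bp), 3 H4 genes (Hist1h4i, Hist1h4k and Hist1h4n), the H3 gene Hist1h3f and the H2A gene Hist1h2aa. In the authors' deposited table the log2 fold change of Hist1h4i was 1.79 (adjusted p = 1.35e-05), that of Hist1h2ba 1.37 (6.01e-05) and that of Hist1h4k 1.53 (0.000605). Those values were matched by a fit with a grouping of the libraries into 3 levels that the labels do not give. With that grouping as a covariate edgeR called 3 members, Hist1h2ba, Hist1h4i and Hist1h4k, against 0.369% of all genes called higher. Without deficient 5 the same model called 0 members and also 0 of all 19615 genes in either direction. In that fit 11 of 46 members were higher at an unadjusted p under 0.05, against 6.3% of all genes.

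The genes that make and handle histone mRNA and protein were set beside them as 3 lists. Of 26 tested histone mRNA processing genes, 12 had a log2 fold change above 0, with a median of -0.08 and 0 called. Slbp, which binds the stem-loop, was at 315 ± 78.8 CPM in deficient and 426 ± 247 CPM in heterozygous libraries (SD, n = 5 each), with a log2 fold change of -0.43 ± 0.33 (edgeR adjusted p = 0.529). Npat, the coactivator of histone gene transcription, had 0.47 ± 0.33 and Lsm10, a subunit of the U7 particle that cuts histone pre-mRNA, -0.81 ± 0.30, neither called. The other genes with the smallest p in each direction were Sympk, a scaffold of the cleavage machinery, at 0.71 ± 0.32, Gon4l at 0.52 ± 0.26 and Coil, which encodes the Cajal body protein coilin, at -0.46 ± 0.19.

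Of 24 tested histone chaperone genes, 11 were above 0, with a median of -0.06, and 0 were called. Ubn2 and Ubn1, subunits of the HIRA complex that places H3.3 outside replication, had the smallest p in that list, with log2 fold changes of 0.74 ± 0.20 and 0.83 ± 0.23 (edgeR adjusted p = 0.145 and 0.150). Ssrp1, a subunit of the FACT chaperone, and Cabin1, another HIRA complex subunit, had the smallest p in the other direction, at -0.50 ± 0.20 and -0.61 ± 0.24. Of 40 S phase genes, 15 were above 0, with a median of -0.09 and 0 called. Uhrf1, whose product binds hemimethylated DNA and recruits the maintenance methyltransferase DNMT1, had the smallest p, at -0.97 ± 0.25 (edgeR adjusted p = 0.145), and Dscc1, of a clamp loader, was at -0.62 ± 0.23. Pole, the leading strand polymerase, was at 0.87 ± 0.33, and Prim2, a primase subunit, at 0.37 ± 0.21. Across libraries the S phase sum was 3289 to 3859 CPM in the 3 erythroid-high libraries, deficient 5 included, and 4662 to 7789 CPM in the other 7.

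Core histone genes known to give polyadenylated mRNA in cells that do not divide numbered 11 in the files, of which 8 were tested and 7 were above 0, with a median log2 fold change of 0.65 and 0 called. Their sum was 11.1, 16.6, 14.01, 28.7 and 30.8 CPM in heterozygous and 20.5, 20.7, 22.1, 19.1 and 58.9 CPM in the deficient libraries. Deficient 5 was again the highest library, and the other deficient libraries lay within the heterozygous range. Whether the libraries were made from polyadenylated RNA is not given in the sources used here. A level therefore cannot be assigned to one or the other kind of mRNA.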

How the data were processed

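The authors deposited raw counts and TPM for each gene. Per the submitters' processing notes, the tools were featureCounts (Subread 1.6.2), StringTie 1.3.3b, HISAT2 2.1.0 and Trim Galore 0.5.0, and the build was GRCm38. The authors' deposited comparison gives a mean normalized count as signal, log2 fold changes, a score (the test statistic) and p-values per gene, per the file headers. The members, lists and alternatives were chosen with earlier results of these data known.

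All genes were tested on the deposited counts with edgeR 4.0.16 (quasi-likelihood, genotype only, TMM scaling, edgeR's expression filter) in R 4.3.3, with Benjamini-Hochberg adjustment at 0.05. CPM use TMM-scaled library sizes. SE is the absolute log2 fold change over the square root of F. DESeq2 1.42.0 and limma 3.58.1 on log2(TPM + 1) and log2(TPM + 0.1) were alternatives, as were other scalings, filters, covariates and leaving out libraries. The code was tested on simulated data. Genes without a symbol held 0.0632% to 0.0945% of counts. Depth was 16707216 to 26983565 counts per library, and floors cover counting error only. A 3-level grouping was rebuilt so that DESeq2 returned the deposited log2 fold changes to within 0.00555, with 1172 calls in each.

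The text names, in each type, the 3 members with the highest level (by TPM and, because of the divisor described above, by CPM per kb), the 5 with the smallest p in each direction (3 were lower), those called in the authors' deposited table and the germ line variants. Sequences and annotation are from GENCODE vM21 and RefSeq, by symbol, synonym and position.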

Additional observations from a re-analysis of the deposited data

Results flagged for a closer look

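Samples that stood far from the others of their genotype were found in 14 of the 58 groups of 5 examined. Each had a gap to the nearest library of over 0.71 of the group's range. Chance flags about 1 in 20 independent groups. These groups share libraries, the sums contain the members, and some members were named for their genotype results in these data. The count of flags therefore cannot be set against that rate. Deficient 5 was the library in 13 of the 14 flagged groups. It held an H2B sum of 124.8 CPM, with the next deficient library at 49.3 CPM. Among H4 genes it held 104 CPM of Hist1h4i, 54.9 CPM of Hist1h4c, 31.1 CPM of Hist1h4n and 7.34 CPM of Hist1h4k. Among H2B genes it held 42.1 CPM of Hist1h2ba, 11.1 CPM of Hist1h2be, 9.01 CPM of Hist1h2bk, 5.45 CPM of Hist1h2bc and 3.34 CPM of Hist1h2bb. It also held 11.3 CPM of Hist1h3a, 10.1 CPM of Hist1h2aa and 0.967 CPM of Hist2h3c2. The remaining one was Hist1h3i in heterozygous 1, at 7.23 CPM with the next heterozygous library at 2.14 CPM. Deficient 5 was also 1 of 3 libraries with high erythroid transcripts, whose part in these values was not tested.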

How the results depend on the processing

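Of the summary values, the number of called members and the medians moved most. With 0 called as reported, 2 members were called with DESeq2 (Hist1h4k and Hist1h3h), 3 with the rebuilt grouping (Hist1h2ba, Hist1h4i and Hist1h4k) and 0 to 2 with 1 library left out, the 2 being Hist1h4k and Hist1h3i without heterozygous 1. DESeq2 also called 2 chaperone genes, Ubn1 and Ubn2, and 1 S phase gene, Uhrf1. Over all 20289 genes with an adjusted p it called 242 higher and 437 lower. Leaving out 1 library gave 0 to 1 call in each of these lists. Over all 19766 genes, the fit without heterozygous 1 called 280 higher and 326 lower. The median log2 fold change over tested members, 0.77, was 0.29 to 0.78 with 1 library left out, 0.28 without the third litter date and 0.22 without heterozygous 3 and deficient 5 together, a choice made after seeing the data. With limma on log2(TPM + 1) it was 0.20, with a mean TPM of at least 1 it was 0.23, and with no filter 0.14, where the pseudocount shrinks changes of low values. By type, leaving out 1 library gave medians of 0.06 to 0.43 for H2A, 0.28 to 0.95 for H2B, 0.60 to 0.98 for H3 and 0.52 to 1.00 for H4. Without heterozygous 3 and deficient 5 the medians were 0.22 for H2B and 0.41 for H3. With limma on log2(TPM + 1) they were 0.20 for H2B and 0.18 for H3, at a mean TPM of at least 1 they were 0.32 and 0.35, and with no filter 0.11, 0.14 and, for H4, 0.22. The log2 ratio of mean sums was 0.16 to 0.34 for H2A, 0.27 to 0.81 for H2B, 0.48 to 0.90 for H3 and 0.51 to 0.91 for H4 with 1 library left out. Summing the deposited TPM in place of CPM gave -0.38 for H3, where the divisor described above gives long transcripts such as Hist2h3c2 more weight.

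Of 23 named members tested, 16 kept their sign under every alternative that gave them a value, which was 27 to 29 each. Hist1h2ap, near 0, was -0.012 with upper quartile scaling, -0.047 in the 3 limma fits on log2(TPM + 1) and -0.050 on log2(TPM + 0.1), -0.12 without the first and -0.09 without the third litter date, and -0.12 to 0.25 with 1 library left out. Hist1h2an was 0.008 with bias-adjusted deviances, 0.041 with the rebuilt grouping, 0.29 without the first litter date and -0.35 to 0.20 with 1 library left out. Hist1h2ao was 0.46 without the second litter date, 0.028 without heterozygous 3 and deficient 5, and -0.42 to 0.063 with 1 library left out. Hist1h2bc was 0.10 with the rebuilt grouping, 0.20 with it and without deficient 5, 0.22 without the 3 erythroid-high libraries, and -0.39 to 0.085 with 1 library left out. Hist1h2ae was -0.06 without the erythroid-high libraries and -0.08 with the rebuilt grouping and without deficient 5. Without heterozygous 3 and deficient 5, Hist1h2aa was -0.009 and Hist1h3a -0.17. The cause of these changes was not tested.

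Libraries 1, 3 and 5 share their litter date with the same number of the other genotype, and their deviations correlated at 0.16, 0.11 and 0.58, while libraries 2 and 4 do not share it and gave 0.02 and -0.25. The numbers therefore did not pair the libraries as a whole, and best partners had the same number for number 5 only. With the replicate block, 0 members were called, 41 of 45 were above 0, against 52.3% of all genes, and the median was 0.75.

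The 3 list medians were -0.21 to 0.05 for S phase genes, -0.05 to 0.03 for chaperones and -0.10 to 0.07 for histone mRNA processing genes with 1 library left out, where the last list had 0 called. Members under about 1 CPM, such as Hist1h3h, rest on few counts per library, and no statement about a single such gene is firm at this depth.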
